A study of Mus musculus with 5 samples.

Results

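Transcripts of the machinery that brings proteins into the endoplasmic reticulum (ER), folds them there and responds when folding lags were followed in single hepatocytes of mice fed 2 diets. The set holds 40 of the 18018 genes in the deposited table, and all 40 symbols were found. It was chosen by gene symbol from knowledge of this machinery, with earlier results of these data known. It was divided by role into 16 genes of translocation, protein modification and cargo export, 15 genes of folding, and 9 genes of the stress response. Hepatocytes of 5 male C57BL/6J littermates, 8 weeks old when the diets started, were captured by Drop-seq, which tags each mRNA near its 3′ end with a barcode of its cell and a molecular identifier (UMI). For 12 weeks, 2 mice (LFD 1 and 2) had been given regular chow and 3 mice (HFD 1, 2 and 3) a high fat diet. The composition of the diets, body weights, and the way the livers were dissociated were not given in the labels. The lobule axis was read from the cells themselves: those of each mouse were ordered by the log ratio of the UMIs of 17 pericentral to those of 17 periportal genes and divided at their median into a periportal and a pericentral side.

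Hepatocytes secrete most proteins of the blood plasma, and these enter the ER through the Sec61 channel, lose their signal peptide and receive sugar chains while they are being made. Chaperones such as BiP (Hspa5) and the calnexin cycle then hold them until they are folded, and disulfide isomerases pair their cysteines. When unfolded protein accumulates, the sensors IRE1, PERK and ATF6 raise chaperone transcription and the degradation of misfolded protein, through the transcription factors XBP1, ATF4 and ATF6. ATF6 and XBP1 act on ER stress response elements in the promoters of chaperone genes.

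Because such an element is shared by several members, the windows from 250 bases before to 50 bases after each RefSeq transcription start (build GRCm38.p6) were searched on both strands for 4 motifs. RefSeq windows were matched for 32 of the 40 members, with 34 windows. Members are counted here as genes, while the whole collection is counted as windows, those of the members included. The element ERSE, read as CCAAT, 9 bases of any kind and CCACG, was found in 8 of these 32 members and in 39 of 32851 windows of the same length (0.119%). The shorter ERSE-II, read as ATTGG, any base and CCACG, was found in 2 members and in 12 windows (0.0365%). The UPRE core TGACGTGG was found in 222 windows (0.676%) and the amino acid response form TGATGNAAT in 317 windows (0.965%), and both were found in 0 of the 32 members. No member held both kinds of element and the 2 ERSE of Hsp90b1 lie apart, so no matches overlap, and a match is a description of these letters only. The matches are shown as a sequence feature of several members, of the folding group and, for Syvn1 and Herpud1, of the stress group. They are written along the gene's own strand with the fixed ends of the motif in capitals, so that a match on the opposite strand reads as CGTGG and ATTGG.
Hspa5 (chromosome 2, 65 to 47 bases before the start): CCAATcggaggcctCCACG
Calr (chromosome 8, 162 to 144 before, opposite strand): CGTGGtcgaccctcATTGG
Hsp90b1, distal (chromosome 10, 212 to 194 before): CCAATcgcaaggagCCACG
Hsp90b1, proximal (chromosome 10, 107 to 89 before, opposite strand): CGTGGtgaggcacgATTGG
Canx (chromosome 11, 145 to 127 before): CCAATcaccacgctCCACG
Pdia6 (chromosome 12, 98 to 80 before): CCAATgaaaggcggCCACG
Dnajc3 (chromosome 14, 105 to 87 before): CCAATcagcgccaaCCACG
Creld2 (chromosome 15, 126 to 108 before, opposite strand): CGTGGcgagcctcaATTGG
Syvn1 (chromosome 19, 44 to 26 before): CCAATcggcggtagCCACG
Herpud1, ERSE-II (chromosome 8, 52 to 42 before): ATTGGgCCACG
Dnajb11, ERSE-II (chromosome 16, 8 to 18 bases after the start): ATTGGcCCACG

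The 250 bases before the start are given for Dnajc3 and Herpud1, 1 member for each element, with the element in capitals. Both genes lie on the plus strand and are taken up again with the lobule axis.
Dnajc3, chr14:118937682-118937931, plus strand: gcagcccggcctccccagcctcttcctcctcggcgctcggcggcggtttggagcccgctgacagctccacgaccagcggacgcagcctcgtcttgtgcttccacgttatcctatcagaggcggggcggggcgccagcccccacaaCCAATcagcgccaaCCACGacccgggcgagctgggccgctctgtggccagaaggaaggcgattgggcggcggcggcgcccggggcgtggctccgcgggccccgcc
Herpud1, chr8:94386179-94386428, plus strand: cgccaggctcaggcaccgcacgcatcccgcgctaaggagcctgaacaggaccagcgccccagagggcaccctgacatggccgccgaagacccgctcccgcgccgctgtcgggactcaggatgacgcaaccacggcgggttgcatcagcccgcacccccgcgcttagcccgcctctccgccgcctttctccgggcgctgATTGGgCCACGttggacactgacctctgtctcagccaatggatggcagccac

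**Figure D1:**
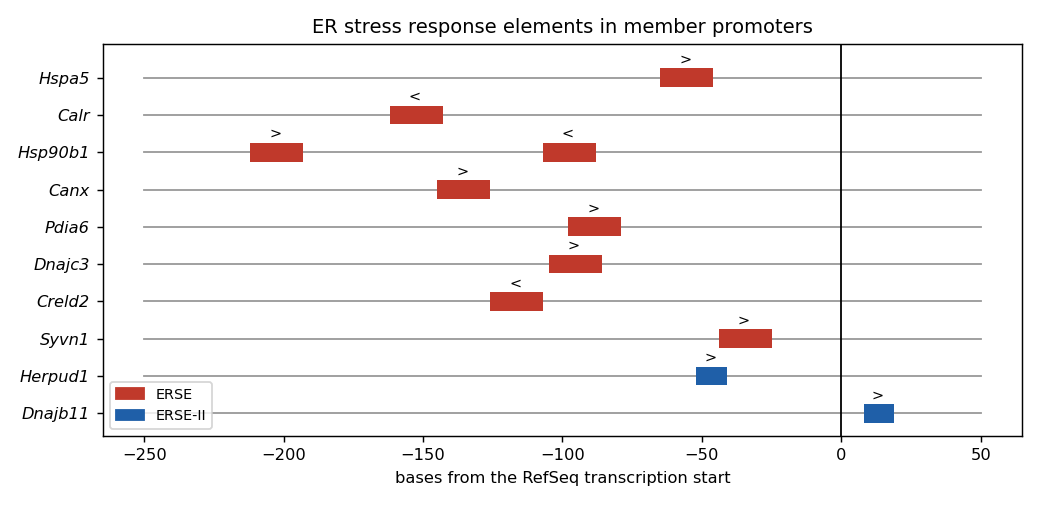
Position of the ERSE (red) and ERSE-II (blue) matches in the member promoters, in bases from the RefSeq transcription start (x axis), 1 line per gene; > and < give the strand of the match relative to the gene. All matches except that of Dnajb11 lie before the start, between 212 and 26 bases upstream.

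The table held 454 cells and 1499094 UMIs, with 446868 and 309050 UMIs (132 and 84 cells) in LFD 1 and 2, and 27903, 656803 and 58470 UMIs (5, 208 and 25 cells) in HFD 1, 2 and 3, and no barcode was shared between mice. Levels are given as CPM, the UMIs of a gene for every 1000000 UMIs summed over the cells of a mouse, and are not divided by transcript length, so levels of different genes are not compared. A gene without a UMI could be as high as 6.71 and 9.71 CPM in LFD 1 and 2, 4.57 CPM in HFD 2 and 51.3 CPM in HFD 3, and 108 CPM in HFD 1, the level of 3 UMIs, counting error only. All 17 hepatocyte markers were present, summing to between 184281 and 218881 CPM in every mouse. Of plasma and B cell markers, the other cells rich in this machinery, 2 of 9 had a UMI (0 to 6.47 CPM per mouse), and Mzb1, Igkc, Iglc2, Igha, Cd79a, Cd79b and Ms4a1 were at 0. Of 10 macrophage markers 9 had a UMI (0 to 38.0 CPM, Lyz2 at 0), and of 10 stellate cell markers 7 (15.7 to 51.3 CPM, Lrat, Col1a2 and Col3a1 at 0). Cholangiocyte markers (3 of 6 with a UMI, Krt7, Krt19 and Epcam at 0) summed to between 103 and 179 CPM, T or NK cell markers (1 of 7) to at most 3.24 CPM and neutrophil markers (1 of 4) to at most 2.24 CPM.

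HFD 1 stood apart from the other mice. Of its 5 barcodes, 3 held 369 to 636 genes for 2725 to 7481 UMIs, and these 3 made up the whole of its pericentral side. Sinusoidal endothelial markers (8 of 10 with a UMI in any mouse, Pecam1 and Gpr182 at 0) summed to 1075 CPM in HFD 1 against 15.7 to 34.2 CPM in the other mice. In HFD 1, Kdr gave 26 and Fcgr2b 4 of these 30 UMIs, and the other endothelial markers were at 0. Erythroid markers (4 of 4 with a UMI in any mouse) reached 502 CPM in HFD 1 and 291 CPM in HFD 3 against 3.24 to 13.7 CPM elsewhere. In HFD 1, Hbb-bs gave 13 of the 14 erythroid UMIs, and Hba-a1 and Hba-a2 were at 0. Mitochondrial transcripts made up 8.98% of the UMIs of HFD 1 and 5.10% to 5.63% in the others. The label of HFD 3 writes its raw-read name in another form than the other labels do. With 1 mouse of that form, any difference of sequencing run and the mouse itself cannot be told apart. Each comparison is given with and without HFD 1. A list of 23 genes that are induced early after stimulation or by heat shock, and also by isolating cells, summed to 1092 and 1243 CPM in the LFD mice and to 3727, 1818 and 2001 CPM in the HFD mice. The sum was higher in all 3 HFD mice, but not by the same genes. In HFD 1, Hspa8, a heat shock cognate gene, gave 71 of the 104 UMIs (2545 CPM against 174 to 239 CPM in the other mice), Fos, Junb, Egr1, Zfp36, Btg2 and Klf6 were at 0 and Jun was at 71.7 CPM. Jun was at 137 and 113 CPM in the LFD mice and at 312 and 325 CPM in HFD 2 and 3. The part of these genes in the diet differences was not tested.

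Comparing the diets, the summed level of the translocation group was lower in the HFD mice and those of the folding and stress groups overlapped, while 0 single members of any group passed the diet test. The summed level of the translocation group was lower in every HFD mouse than in both LFD mice, at 2099 and 2291 CPM in LFD 1 and 2 and at 1541, 1815 and 1471 CPM in HFD 1, 2 and 3. The HFD mean was 73.3% of the LFD mean (1609 ± 182, SD, n = 3, against 2195 ± 136, n = 2; log2 ratio -0.45, and -0.42 without HFD 1). The folding group overlapped between the diets, with 5192 and 6960 CPM against 7060, 5685 and 6243 CPM (log2 ratio 0.06). The stress group also overlapped, with 1282 and 1181 CPM against 1147, 1064 and 1471 CPM (log2 ratio -0.01). These sums are descriptions and carry no test, and HFD 1 and HFD 3 gave only 43 and 86 UMIs of the translocation group.

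**Figure D2:**
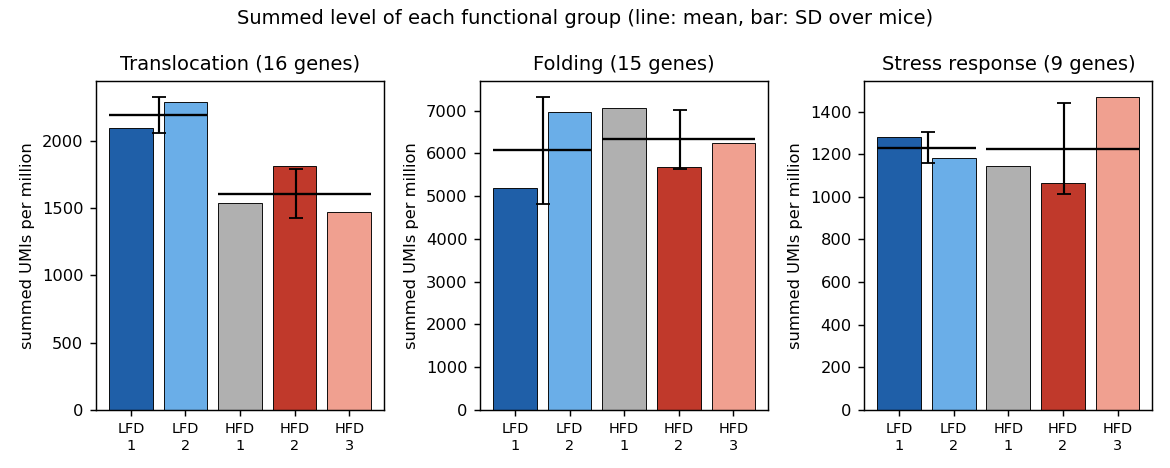
Summed CPM (y axes, from 0) of the translocation, folding and stress-response genes in each of the 5 mice (bars), with the mean of each diet as a line and its SD as an error bar. The translocation bars of the 3 HFD mice lie below both LFD bars, and the other groups overlap.

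Within the translocation group, the lower level was seen in 3 of its 5 complexes. The TRAP complex (Ssr1 to Ssr4), which sits beside the Sec61 channel and helps some signal sequences to enter, summed to 526 and 476 CPM in the LFD mice and 323, 407 and 308 CPM in the HFD mice. Signal peptidase (Spcs1, Spcs2 and Sec11c), which removes the signal peptide, was at 448 and 550 CPM against 71.7, 431 and 291 CPM, the first HFD value from 2 UMIs. The cargo receptors Lman1 and Surf4, which load secreted proteins for transport to the Golgi, together gave 340.1 and 421 CPM against 179, 305 and 222 CPM. The Sec61 channel subunits overlapped, at 409.5 and 459 CPM against 538, 416 and 410.5 CPM. Subunits of the oligosaccharyltransferase, which attaches sugar chains to asparagines, overlapped in 5 mice (376 and 385 against 430.1, 257 and 239 CPM) and did not without HFD 1.

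Per cell, the translocation group took a median of 0.198% and 0.217% of the UMIs of a cell in LFD 1 and 2, and of 0.183%, 0.175% and 0.103% in HFD 1, 2 and 3. The HFD medians lie below both LFD medians, but the ranges of single cells overlap widely, with highest cells at 0.466% and 0.489% in the LFD mice and 0.599% in HFD 2. A list of 68 secreted plasma proteins, the cargo of this machinery, summed to 333991 and 333215 CPM in the LFD mice and to 279504, 326408 and 309920 CPM in the HFD mice, also below both LFD mice. The list includes major urinary proteins (Mup genes). All Mup genes together made up 5.96% and 6.87% of the UMIs of LFD 1 and 2. In HFD 1, 2 and 3 they made up 1.43%, 6.96% and 2.33%. Their part in the lower cargo sum was not tested.

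No single member passed the diet test. In limma's voom fit over 3614 genes, 8 genes passed an adjusted p of 0.05 (0.221% of those tested), and 0 of the 36 members with enough UMIs for the test were among them. The 4 members left out were Sec61g, Hyou1, Ddit3 and Syvn1. An unadjusted p under 0.05 was reached by 1 member, Sdf2l1, against 5.09% of all genes. The median log2 fold change (HFD over LFD) was -0.29 over the 36 members and -0.08 over all genes tested, and by role it was -0.53 for the 15 translocation genes, -0.01 for the 14 folding genes and -0.07 for the 7 stress genes. Every HFD mouse lay below both LFD mice in 12 of the 36 members, where 14.3% of all genes did so: 8 translocation genes (Sec61a1, Ssr2, Ssr4, Spcs1, Spcs2, Rpn1, Ostc and Surf4), 3 folding genes (Canx, Sdf2l1 and Manf) and Xbp1. The places of HFD 1 and HFD 3 in this count rest on few UMIs for most of these genes. HFD 1 had 1 UMI (35.8 CPM) for each of Sec61a1, Ssr2, Ssr4, Spcs1, Spcs2, Rpn1 and Ostc, 2 UMIs for Surf4 and none for Sdf2l1. HFD 3 had 2 UMIs for each of Surf4 and Ostc, 3 for Ssr2, and 4 for each of Rpn1 and Manf. It had 5 UMIs for each of Sec61a1, Spcs1 and Xbp1, and none for Sdf2l1. Every HFD mouse lay above in 0 members, against 8.88% of all genes.

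Without HFD 1, 124 of 3670 genes passed in limma (3.38%), and 0 of 38 members tested were among them. An unadjusted p under 0.05 was reached by 5 members against 18.2% of all genes, with Ddost, Ssr2, Manf and Surf4 below 0 and Pdia4 above 0. In these 4 mice both HFD mice lay below both LFD mice in 13 members (20.2% of all genes), 9 of them in the translocation group, and above in Pdia3, Pdia4 and Atf6 (20.6% of all genes). HFD 3 entered these counts with the few UMIs given above, and with 2 UMIs for Atf6. The median over the members without HFD 1 was -0.17, against -0.00233 over all genes.

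**Figure D3:**
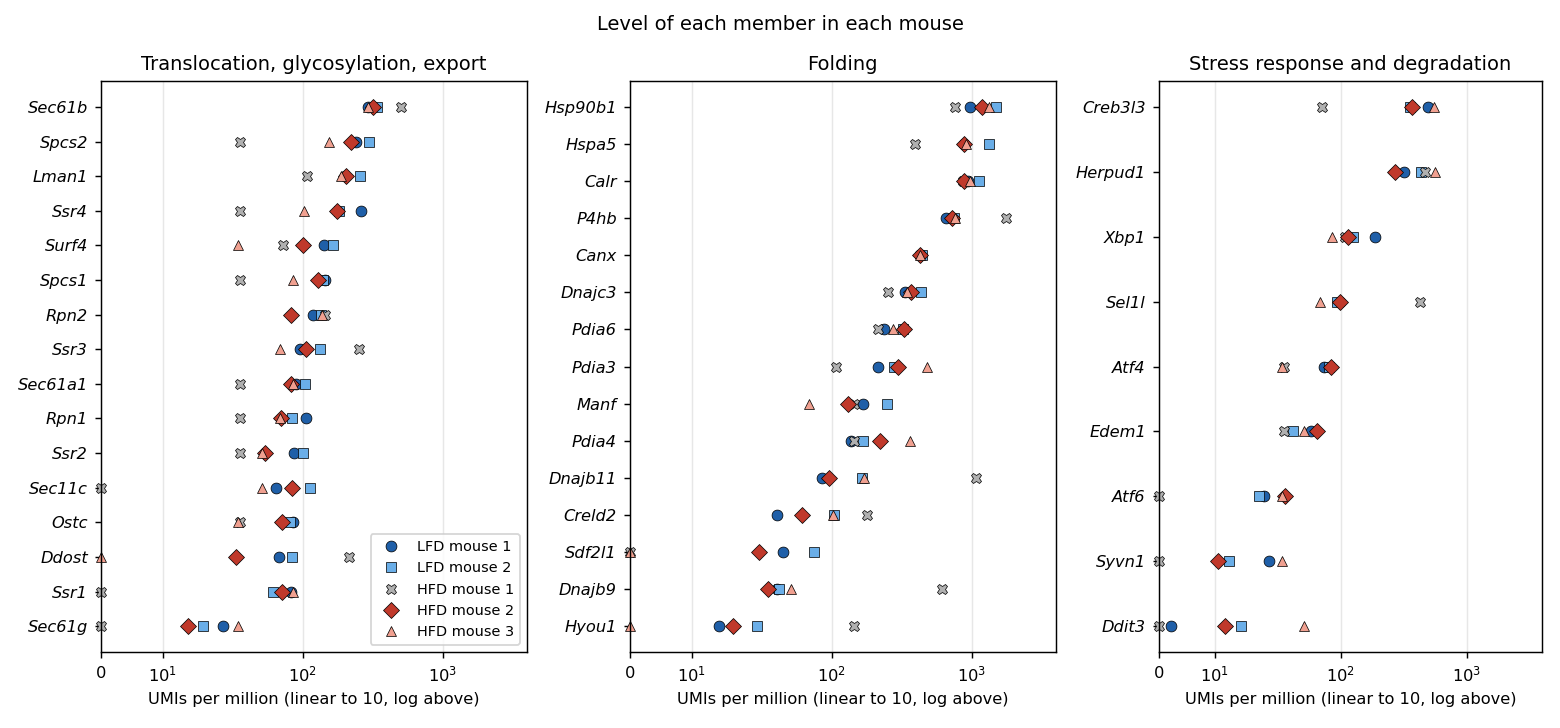
Level of each of the 40 members in each of the 5 mice, in CPM (x axes, linear to 10 and log above), 1 symbol per mouse, by functional group. HFD 1 (grey crosses) lies far from the other mice for many genes, as for Dnajb11 at 1075 CPM, while Canx stays between 423 and 440.1 CPM in all mice.

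Sec61b, the small beta subunit of the channel, was at 293 and 337 CPM in LFD 1 and 2 and at 502, 318 and 291 CPM in HFD 1, 2 and 3 (limma log2 estimate 0.09, SE 0.39, adjusted p = 0.996). Its groups overlapped, and its estimate was -0.01 without HFD 1. Surf4, a receptor that exports several secreted proteins from the ER, was at 141 and 165 CPM in the LFD mice and at 71.7, 100.5 and 34.2 CPM in the HFD mice. All HFD mice were below both LFD mice, but the difference did not pass the test (limma log2 estimate -1.03, SE 0.53, adjusted p = 0.988). Ssr4, the delta subunit of TRAP, was at 259.6 and 181 CPM against 35.8, 177 and 103 CPM (limma log2 estimate -0.86, SE 0.52, adjusted p = 0.988). HFD 2 lay just below LFD 2 and HFD 1, with 1 UMI, far below. Spcs2, an accessory subunit of signal peptidase, was at 239 and 298 CPM against 35.8, 219 and 154 CPM (limma log2 estimate -0.82, SE 0.52, adjusted p = 0.988). The value of HFD 1 was again that of 1 UMI, and without that mouse the estimate was -0.36 (SE 0.23, limma adjusted p = 0.427). Lman1, the mannose-binding receptor for clotting factors V and VIII, was at 199 and 256 CPM against 108, 204 and 188 CPM, and its groups overlapped (limma log2 estimate -0.35, SE 0.44, adjusted p = 0.988). Ddost, an oligosaccharyltransferase subunit, had the lowest estimate of the translocation group without HFD 1, at -1.30 (SE 0.46, limma adjusted p = 0.137), and was singled out after its values were seen. It was at 67.1 and 84.1 CPM in the LFD mice, at 215 and 33.5 CPM in HFD 1 and 2, and had no UMI in HFD 3.

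The chaperones with the most UMIs overlapped between the diets, apart from Canx, whose values lay close together. Hspa5, the Hsp70 of the ER lumen, was at 875 and 1317 CPM in LFD 1 and 2 and at 394, 885 and 906 CPM in HFD 1, 2 and 3. The LFD mice differed from each other by more than LFD 1 did from HFD 2 or HFD 3 (limma log2 estimate -0.51, SE 0.38, adjusted p = 0.988). Hsp90b1 (GRP94), the Hsp90 of the ER, was at 973 and 1479 CPM against 753, 1181 and 1334 CPM (limma log2 estimate -0.11, SE 0.33, adjusted p = 0.993), with both HFD 2 and HFD 3 between the LFD mice. Calr (calreticulin), a sugar-binding chaperone, was at 938 and 1119.6 CPM against 860.1, 883 and 975 CPM (limma log2 estimate -0.22, SE 0.30, adjusted p = 0.988). Canx (calnexin), its membrane-bound relative, was nearly level over the mice, with means of 438 ± 2.61 (SD, n = 2) and 427 ± 3.44 CPM (n = 3). The 95% interval of its log2 fold change ran from -0.83 to 0.68. P4hb, the classic protein disulfide isomerase, was at 658 and 744 CPM against 1756, 726 and 753 CPM (limma log2 estimate 0.26, SE 0.36, adjusted p = 0.988). It was high in HFD 1 only.

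The other folding members did not pass the test either. Sdf2l1, a partner of BiP and its co-chaperones, was at 44.8 and 74.4 CPM in the LFD mice and 30.5 CPM in HFD 2, and had no UMI in HFD 1 and HFD 3 (limma log2 estimate -1.51, SE 0.65, adjusted p = 0.938). The 95% interval of its log2 fold change ran from -2.93 to -0.10. The limit that 0 UMIs allow in HFD 1 (108 CPM) lies above both LFD values, and that of HFD 3 (51.3 CPM) lies between them. Manf, a secreted factor that binds BiP, was at 168 and 249 CPM against 143, 131 and 68.4 CPM, all HFD mice below both LFD mice (limma log2 estimate -0.84, SE 0.48, adjusted p = 0.988). Pdia4, a disulfide isomerase, was at 137 and 168 CPM against 143, 221 and 359 CPM, and without HFD 1 its estimate was 0.70 (SE 0.24, limma adjusted p = 0.127). Pdia3, which works with the calnexin cycle, was at 213 and 278 CPM against 108, 298 and 479 CPM, and without HFD 1 its estimate was 0.46 (SE 0.22, limma adjusted p = 0.291). In both, HFD 3 was the highest mouse and HFD 2 lay above the LFD mice. The co-chaperones Dnajb11 and Dnajb9 were far above the other mice in HFD 1 alone, at 1075 and 609 CPM against at most 171 and 51.3 CPM elsewhere. A single barcode of HFD 1 carried 27 of its 30 Dnajb11 UMIs and 14 of its 17 Dnajb9 UMIs. The remaining folding members, Pdia6, Dnajc3 and Creld2, had estimates between -0.18 and 0.40 with overlapping groups, and Hyou1 was not tested.

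Among the stress-response genes, the transcription factors and the degradation machinery gave no common direction. Xbp1, whose spliced form drives ER expansion, was at 188 and 126 CPM in the LFD mice and at 108, 114 and 85.5 CPM in the HFD mice. All HFD mice were lower, by less than the test could resolve (limma log2 estimate -0.57, SE 0.47, adjusted p = 0.988), and the counts do not separate the spliced from the unspliced form. Creb3l3 (CREBH), a liver factor cleaved on its way out of the ER that controls lipid and acute phase genes, was at 492 and 353 CPM against 71.7, 371 and 547 CPM. HFD 3 was the highest and HFD 1, with 2 UMIs, the lowest (limma log2 estimate -0.49, SE 0.53, adjusted p = 0.988). Herpud1, a membrane protein of ER-associated degradation, was at 318 and 434 CPM against 466, 271 and 564 CPM, with HFD 2 the lowest and HFD 3 the highest (limma log2 estimate -0.07, SE 0.40, adjusted p = 0.996). Sel1l, the adaptor of the Hrd1 ubiquitin ligase, was at 98.5 and 93.8 CPM against 430.1, 99.0 and 68.4 CPM, high in HFD 1 only (limma log2 estimate 0.30, SE 0.60, adjusted p = 0.991). Ddit3 (CHOP), a factor of prolonged stress, was at 2.24 and 16.2 CPM in the LFD mice, had no UMI in HFD 1, and was at 12.2 and 51.3 CPM in HFD 2 and 3, the last from 3 UMIs, and was too low to test. Atf4, Atf6 and Edem1 were tested, and their estimates lay between -0.30 and 0.37.

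**Figure D4:**
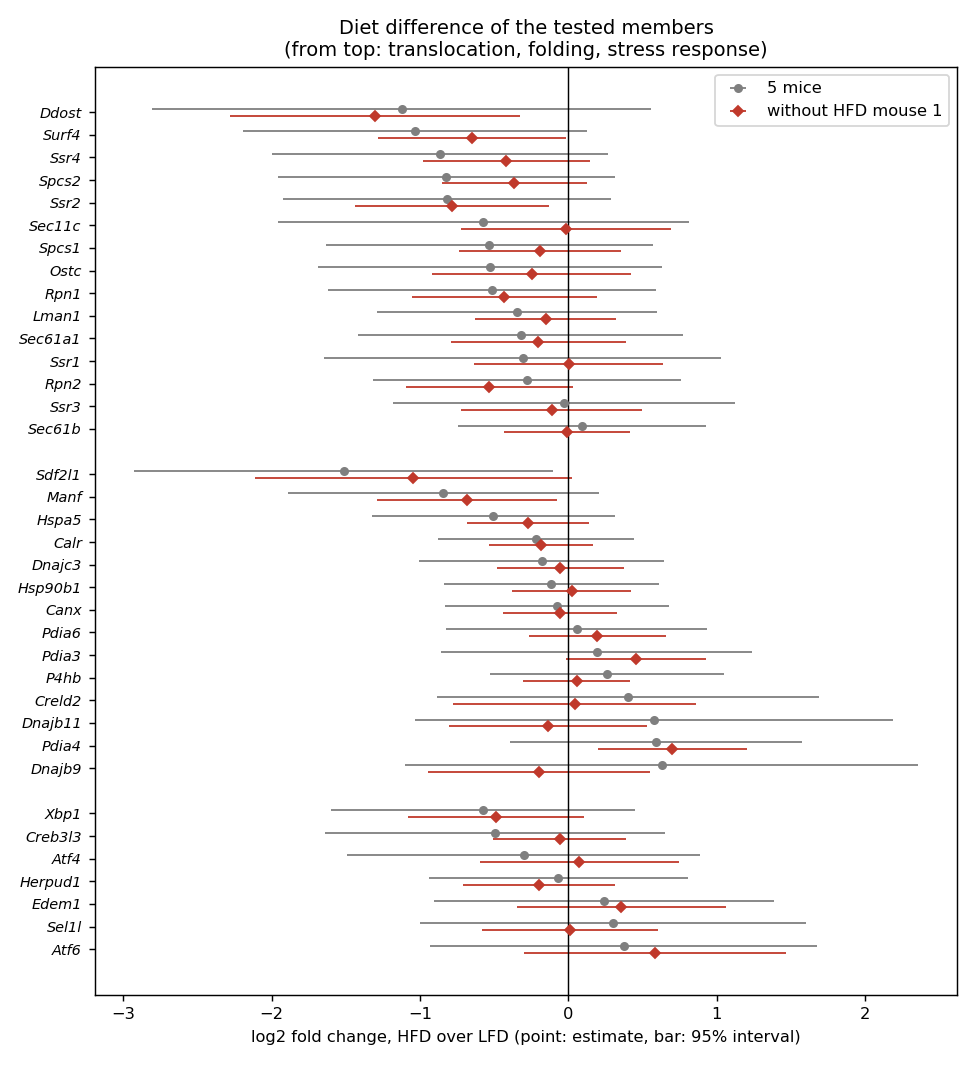
Log2 fold change of HFD over LFD (x axis) for each member tested, as the limma estimate (point) with its 95% interval (bar), for 5 mice (grey) and without HFD 1 (red); genes run from translocation at the top to stress response at the bottom. Most translocation estimates lie left of 0, and in 5 mice only the interval of Sdf2l1 leaves out 0.

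The rest of the pathway was read from 3 further lists of 103 ER genes, of which 64 were tested in 5 mice and 0 passed (2 reached an unadjusted p under 0.05). Their median log2 fold change was -0.24, with 42 below 0, and by list it was -0.06 for 36 other translocation genes, -0.24 for 15 folding genes and -0.41 for 13 stress genes, against -0.08 over all genes. Among those 36 translocation genes, 6 had every HFD mouse below both LFD mice (14.3% of all genes), 3 had every HFD mouse above (8.88% of all genes) and 27 overlapped. The summed level of all 44 genes of that list overlapped between the diets, unlike that of the 16 translocation members. It was 3941 and 3753 CPM in LFD 1 and 2 and 6021, 3783 and 3472 CPM in HFD 1, 2 and 3. The lowest p above 0 belonged to Sec62 and Txndc5, with log2 fold changes of 0.77 (SE 0.47) and 0.98 (SE 0.61), and below 0 to the proline isomerases Fkbp11 and Ppib, with -1.44 (SE 0.57) and -1.26 (SE 0.52). Sec62, a channel partner for small secreted proteins, was at 369 and 427 CPM in the LFD mice and at 2186, 531 and 547 CPM in the HFD mice. Ppib (cyclophilin B) was at 427 and 421 CPM against 35.8, 251 and 239 CPM. It was the 1 pathway gene that passed in the limma fit without HFD 1 (65 tested; log2 fold change -0.77, SE 0.20, adjusted p = 0.0400).

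Along the lobule axis, the summed level of the stress group was lower on the pericentral than on the periportal side in all 4 mice other than HFD 1. Its members did not all share this direction. The folding group lay below 0 in all 5 mice, though the sides of HFD 2 were nearly level, and the translocation group was level in the LFD mice and lower on the pericentral side in the HFD mice. The log2 ratio of the summed levels (pericentral over periportal) for the folding group was -0.14 and -0.24 in LFD 1 and 2, and -0.44, -0.02 and -0.20 in HFD 1, 2 and 3. For the stress group it was -0.22 and -0.30 in the LFD mice, and 0.54, -0.24 and -0.29 in the HFD mice, HFD 1 being the exception. Creb3l3 and Herpud1, with the most UMIs of this group (607 and 500), were lower pericentrally in each of the other 4 mice, as was Ddit3. Atf4 was lower there in 3 of these mice, Atf6, Edem1 and Syvn1 in 2, Xbp1 in 1 and Sel1l in 0. The summed ratios carry no test. For the translocation group the log2 ratio was 0.01 and -0.01 in the LFD mice, and -0.94, -0.26 and -0.56 in the HFD mice. Over both sides, this group had only 43 UMIs in HFD 1 and 86 UMIs in HFD 3. The level sums of LFD 1 and 2 held opposite parts, at 0.42 and 0.20 for the Sec61 channel and -0.15 and -0.22 for TRAP. Median UMIs per cell on the periportal and pericentral side were 3531.5 and 2143.5 in LFD 1, 3192.5 and 2795 in LFD 2, 2037 and 2255 in HFD 2, and 1878.5 and 1863 in HFD 3. The depth gap runs one way in LFD 1 and LFD 2 and the other way in HFD 2, and its part in the side differences was not tested. Immediate early and heat shock genes were at 1101 against 1079 CPM (periportal against pericentral) in LFD 1, 1076 against 1439.6 in LFD 2, 2020.4 against 1664 in HFD 2 and 2097 against 1915 in HFD 3, with no common direction. Endothelial markers were at 11.3 against 22.1, 5.98 against 35.3, 14.1 against 45.6 and 72.3 against 0 CPM in the same order. Erythroid markers were at 7.51 against 5.54, 5.98 against 0, 0 against 24.1 and 108 against 454 CPM. Their part in the side differences was not tested.

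In the limma fit with mouse as a block over all 5 mice, 2 of 1700 genes passed (0.118%), and 0 of the 31 members tested were among them. Of all genes tested, 0.0588% passed as higher on the periportal side. An unadjusted p under 0.05 was reached by 3 members, Spcs2, Lman1 and Pdia3, all below 0, and by 6.47% of all genes. Without HFD 1, whose pericentral side consists of the 3 barcodes with few genes, 161 of 1954 genes passed (8.24%), 92 of them higher on the periportal side (4.71%). Of 32 members tested in these 4 mice, 6 passed, and all 6 were higher on the periportal side: Hspa5, Pdia3 and Dnajc3 of the folding group, Spcs2 and Lman1 of the translocation group, and Herpud1 of the stress group. The 6 calls therefore rest on leaving out HFD 1, which was planned only as an alternative. The median log2 difference (pericentral over periportal) over the members was -0.19 with 27 of 32 below 0, against -0.02 over all genes. With plain library sizes the median of all genes moved to 0.10, that of the members to -0.08 with 21 below 0, and 3 members passed (Hspa5, Pdia3 and Spcs2), while the split of all genes that passed went from 92 periportal and 69 pericentral to 58 periportal and 100 pericentral. Of the members tested, 7 were lower in CPM on the pericentral side in each of the 4 mice (7.98% of all genes), namely Spcs2, Hspa5, Hsp90b1, Pdia4, Dnajc3, Herpud1 and Creb3l3. The place of HFD 3 in this count rests on few UMIs for several of them. Its periportal and pericentral UMIs were 5 and 4 for Spcs2, 10 and 11 for Pdia4, 10 and 10 for Dnajc3 and 16 and 16 for Creb3l3. They were 38 and 40 for Hsp90b1, 18 and 15 for Herpud1 and 38 and 15 for Hspa5. Another 2 members, Surf4 and Sel1l, were higher on the pericentral side in each of the 4 mice, as were 294 of the 1954 genes tested. Neither passed, with limma estimates of 0.29 (SE 0.24, adjusted p = 0.567) for Surf4 and of -0.03 (SE 0.26, adjusted p = 0.974) for Sel1l, whose fitted sign is opposite to that of its CPM.

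Hspa5 was at 969 against 736 CPM in LFD 1, 1404 against 1214 in LFD 2, 1051 against 758 in HFD 2 and 1374 against 487 in HFD 3, periportal against pericentral. It was higher on the periportal side in all 4 mice, most of all in HFD 3 (limma log2 estimate -0.58, SE 0.13, adjusted p = 0.00215, pericentral over periportal). In HFD 1 it was at 991 CPM on the periportal side and had no UMI among the 16804 of the pericentral side. Its call was lost only when the deposited log values were averaged in place of summed UMIs (adjusted p = 0.102 in limma-trend) among 10 further settings chosen after the data were seen. Dnajc3 (p58IPK), a co-chaperone of BiP that also restrains PERK, was at 379 against 260.2 CPM in LFD 1, 484 against 367 in LFD 2, 434 against 319 in HFD 2 and 362 against 325 in HFD 3. In CPM it too was higher on the periportal side in each of these mice (limma log2 estimate -0.56, SE 0.16, adjusted p = 0.0188). In HFD 3, however, each side held 10 of its UMIs. Its call was kept in only 2 of the 10 settings, with adjusted p up to 0.308. Pdia3 was at 252 against 155 CPM in LFD 1, 347 against 198 in LFD 2, 384 against 233 in HFD 2 and 398 against 552 in HFD 3 (limma log2 estimate -0.72, SE 0.19, adjusted p = 0.00559). HFD 3 ran against the other 3 mice, and without it the adjusted p was 0.000154 and without HFD 2 it was 0.105. Its call was kept in 5 of the 10 settings.

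Herpud1, whose promoter carries the ERSE-II printed above, was at 346 against 277 CPM in LFD 1, 484 against 374 in LFD 2, 335 against 222 in HFD 2 and 651 against 487 in HFD 3 (limma log2 estimate -0.55, SE 0.17, adjusted p = 0.0243). The periportal side was the higher in each of the 4 mice, but the call was kept in only 2 of the 10 settings (adjusted p up to 0.376). Spcs2 was at 263 against 205 CPM in LFD 1, 341 against 247 in LFD 2, 310.3 against 150.1 in HFD 2 and 181 against 129.8 in HFD 3 (limma log2 estimate -0.77, SE 0.19, adjusted p = 0.00478). The gap was widest in HFD 2, and without that mouse the adjusted p was 0.30. The call was kept in 7 of the 10 settings. Lman1 was at 199 against 199 CPM in LFD 1, 311 against 191 in LFD 2, 254 against 166 in HFD 2 and 325 against 64.9 in HFD 3 (limma log2 estimate -0.62, SE 0.21, adjusted p = 0.0497). The sides were level in LFD 1, and the values of HFD 3 were those of 9 and 2 UMIs. The adjusted p was 0.312 without HFD 2 and 0.303 without LFD 2. The call was kept in 3 of the 10 settings. Leaving out LFD 1, LFD 2, HFD 2 or HFD 3 in addition to HFD 1 left 4, 2, 1 and 6 member calls, and the direction of these 6 genes was periportal in all 10 settings. Without LFD 2 the calls were those of Hspa5 and Spcs2, and without HFD 2 that of Hspa5. Without LFD 1, Dnajc3 (adjusted p = 0.0892) and Herpud1 (adjusted p = 0.0503) did not pass.

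Other folding members did not all share this direction. Calr was at 920.3 against 963 CPM in LFD 1, 1094 against 1150.3 in LFD 2, 677 against 1039.7 in HFD 2 and 976 against 974 in HFD 3. It had a log2 difference of 0.13 (SE 0.13) and Canx had a log2 difference of 0.07 (SE 0.16), with adjusted p of 0.686 and 0.855 in limma for these lectin chaperones. P4hb was at 676 against 631 CPM in LFD 1, 801 against 677 in LFD 2, 617 against 809 in HFD 2 and 687 against 811 in HFD 3, higher on the periportal side in the LFD mice and on the pericentral side in HFD 2 and 3 (limma log2 estimate -0.05, SE 0.14, adjusted p = 0.902). That difference between the diets did not pass either (log2 0.48, SE 0.27, limma adjusted p = 0.769). Hsp90b1 was at 999 against 935 CPM in LFD 1, 1625 against 1306 in LFD 2, 1276 against 1109 in HFD 2 and 1374 against 1298 in HFD 3. It was higher on the periportal side in each mouse, short of the threshold (limma log2 estimate -0.31, SE 0.12, adjusted p = 0.111). When the middle cells of the axis were left out, Hsp90b1 (adjusted p = 0.0425) and Pdia4 (adjusted p = 0.0339) passed, and Dnajc3 (adjusted p = 0.101) and Herpud1 (adjusted p = 0.124) no longer did. Creb3l3 was likewise periportal in each of the 4 mice and short of the threshold (limma log2 estimate -0.43, SE 0.16, adjusted p = 0.0827). Sec61b had a log2 difference of 0.00 with a 95% interval from -0.36 to 0.36, and Xbp1 one of -0.19 with an interval from -0.64 to 0.27.

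**Figure D5:**
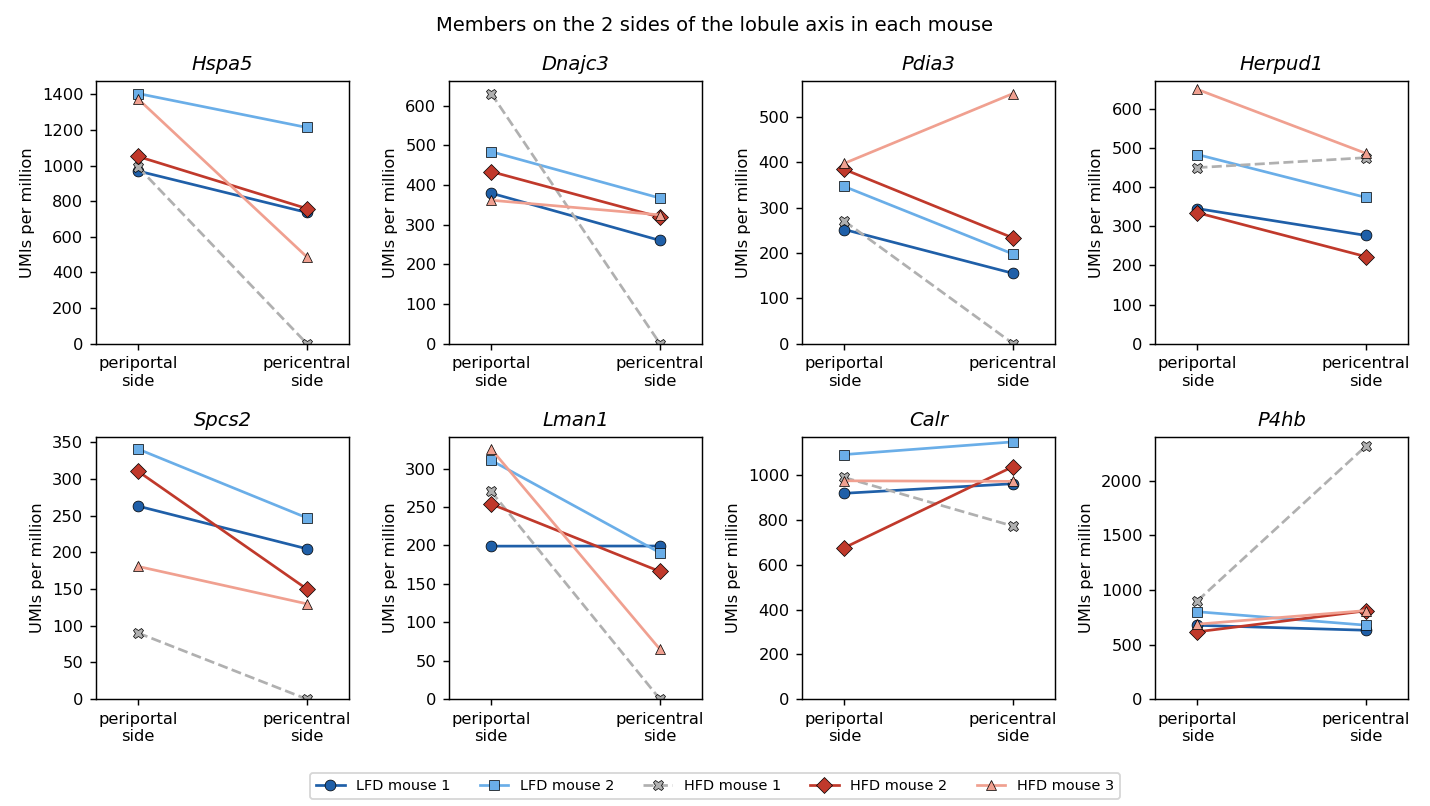
CPM (y axes, from 0) on the periportal and pericentral side of the lobule axis for 8 members, with 1 line per mouse and HFD 1 dashed. The first 6 panels are the genes that passed without HFD 1; their lines fall from left to right in most mice, and those of Calr and P4hb do not.

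Other genes of the pathway and the cargo were read on the same axis. Of the 103 ER genes outside the set, 39 were tested in 5 mice and 0 passed, 0 of them with an unadjusted p under 0.05. The smallest p above 0 belonged to Tmed9 and Txndc5 and below 0 to Ganab and Os9, with log2 differences of 0.78 (SE 0.42), 0.45 (SE 0.47), -1.17 (SE 0.56) and -0.74 (SE 0.36). Without HFD 1, 42 were tested and 1 passed, Tmem258, a small oligosaccharyltransferase subunit, which was higher on the periportal side (log2 difference -0.89, SE 0.23, limma adjusted p = 0.00731). Of the secreted plasma proteins, 62 were tested in these 4 mice, with 27 that passed higher on the periportal and 4 on the pericentral side, and in all 5 mice 2 passed, 1 toward each side. Their summed log2 ratio was -0.15, -0.28, -0.25 and -0.17 in LFD 1, LFD 2, HFD 2 and HFD 3, so the cargo too was lower on the pericentral side in each of these mice.

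Whether the side difference itself changed with the diet was tested as a further term of the same fit. Over 5 mice 0 of 1700 genes passed, the members included, and 0 of the 31 members and 7 of all genes (0.412%) reached an unadjusted p under 0.05. Without HFD 1, 2 of 1954 genes (0.102%) and 0 of 32 members passed in limma. The 2 members with an unadjusted p under 0.05 (5.89% of all genes) were Sec61b and Sec11c, whose pericentral over periportal differences differed between HFD and LFD by -0.86 (SE 0.33) and -1.29 (SE 0.56) on the log2 scale, with adjusted p of 0.645 and 0.738. Sec61b was higher on the pericentral side in LFD 1 and LFD 2 (354 and 395 against 252 and 287 CPM), lower there in HFD 2 (281 against 367 CPM) and level in HFD 3.

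The genome positions of the members named most often, in the mouse build mm10 with GENCODE gene models, are chr2:34771970-34777547 (plus strand) for Hspa5, chr2:121413775-121438687 (plus) for Pdia3, chr14:118937976-118981697 (plus) for Dnajc3, chr8:94386438-94395377 (plus) for Herpud1, chr7:99837569-99863462 (minus) for Spcs2 and chr2:26920040-26933928 (minus) for Surf4. All are protein-coding genes, and the counted tags come from near their 3′ ends. Exons of Surf4, Spcs1, Rpn2, Pdia3, Pdia6, Ddit3 and Syvn1 overlap exons of a protein-coding gene on the opposite strand (Surf2, Glt8d1, Mroh8, Catsper2, Atp6v1c2, Mars and Mrpl49), as do those of Manf (Dcaf1). Whether the counting used strand was not given in the sources used here, so reads of such pairs cannot be told apart. Exons of Manf also overlap those of Rbm15b, a protein-coding gene on the same strand, which strand would not separate.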

How the data were processed

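The members and gene lists were chosen with earlier results of these data known. The deposited table, made by the authors, gives natural log values, as ln(1 + x) with x the UMIs scaled to 10000 in each cell, as the values themselves imply. STAR 2.6.0a and build mm10 were used, per the submitters' processing notes. How cells were filtered, doublets handled, strand used and genes annotated was not given in the sources used here. A second, smoothed table was not used. All columns carried the name of a mouse.

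After back-transformation, 100% of values above 0 were whole UMIs within a tolerance of 0.001. Because the deposited unit is a log and not a count, no count model was run. UMIs were summed per mouse, or per mouse and side, and fitted by voom in limma 3.58.1 under R 4.3.3, with trimmed-mean factors and Benjamini-Hochberg adjustment over all genes tested, at 0.05. Mouse was a block in the side fits, from which the score genes were left out. Genes needed 32.4 CPM (10 UMIs at the median library) in 2 mice and 15 UMIs in all for diet, and 64.7 CPM in 5 of the 10 sums for the sides. No doublet caller was run, and the 5% of cells with most UMIs were left out as an alternative. The fits were tested on simulated data.

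Values per mouse are given for members past the threshold, for the 3 members of highest mean CPM and the 2 of smallest diet p in each group, and for those changed by over 1 on the log2 scale without overlap. Of the other ER genes, the 2 of smallest p in each direction are named. Canx, Ddost, Pdia3, Pdia4, Hspa5 in the diet comparison, Dnajb9, Dnajb11 and Ddit3 were added after their values were seen. For the sides, leaving out each mouse in turn, HFD 1 among them, was planned as an alternative to the fit of all mice. Taking the side fits without HFD 1 as main fits of their own, with 10 further settings, was chosen after the data were seen.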

Additional observations from a re-analysis of the deposited data

How the results depend on the processing

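No member passed the diet test under any of the 13 alternatives run, with 0 to 5 members at an unadjusted p under 0.05 in limma. Over all genes, the count of 8 became 0 with log2(CPM + 10), 0 with log2(CPM + 50), 0 with at least 50 UMIs, 2 without a filter, 2 without the 5% of cells with most UMIs, 14 with the means of the deposited values, and 0 to 124 when 1 mouse was left out. Replicate numbers did not pair the mice (correlations of deviations 0.03 and 0.06 over 2 pairs), and a replicate block gave 29 genes and 0 members. Among members with no call, the diet estimate changed sign in some settings. When 1 mouse was left out, it ran from -0.0103 to 0.40 for Sec61b, from -0.35 to 0.23 for Hsp90b1, from -0.20 to 0.59 for Herpud1, from -0.23 to 0.47 for Pdia3 and from -0.29 to 0.0646 for Dnajc3. Sec61b was at -0.0217 without a filter. Herpud1 was at 0.0734 with log2(CPM + 10), 0.0693 with log2(CPM + 50) and 0.0172 with at least 50 UMIs. Pdia3 was at -0.0395 and -0.00286 with these pseudocounts, -0.0165 without a filter, -0.27 with the replicate block and -0.0552 without the 5% of cells with most UMIs.

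For the sides in 5 mice, leaving out 1 mouse gave 0 to 6 members and 0 to 161 genes. The 2 genes over the whole table became 10 without the middle cells of the axis, 1 with plain library sizes, 12 without a filter and 4 without the 5% of cells with most UMIs. In the 4 mice without HFD 1, the 6 members became 2 with Cyp2e1 against Cyp2f2 alone, 3 with plain library sizes, 1 without a filter, 0 with the means of the deposited values (6 at an unadjusted p under 0.05) and 1 to 6 when a further mouse was left out, and the 161 genes became 47 with those means and 85 to 196 without a further mouse. For diet by side, 0 to 2 genes passed over the whole table when 1 mouse was left out, and in the 4 mice the 2 genes became 5 without the middle cells of the axis, 15 without a filter and 2 to 6 without a further mouse. The cause of these shifts was not tested, and where 1 mouse was left in a diet, it was assumed to vary like the others.

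Depth was lowest in HFD 1 (27903 UMIs) and HFD 3 (58470 UMIs), where the low members (Sec61g, Hyou1, Ddit3 and Syvn1) were near the level of a few UMIs. Many tested members were also at a few UMIs in these mice, above all in the translocation group. Sec61a1 and Spcs1 each had 1 UMI in HFD 1 and 5 in HFD 3, Ssr2 had 1 and 3, and Ostc had 1 and 2. The lobule axis was inferred from the same cells, not from position.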
